A study of Homo sapiens with 14 samples.

Results

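Cytosolic heat shock and chaperone genes were followed across cell lines that carry engineered RNA-editing enzymes. The set was a named list of 32 genes: members of the HSP70 family (HSPA1A, HSPA1B, HSPA2, HSPA4, HSPA4L, HSPA8, HSPA9, HSPA14 and HSPH1), HSP90 (HSP90AA1 and HSP90AB1), the small heat shock proteins HSPB1 and CRYAB, the chaperonins HSPD1 and HSPE1, J-domain proteins (DNAJA1, DNAJA2, DNAJA4, DNAJB1, DNAJB2, DNAJB4 and DNAJB6), cochaperones (BAG2, BAG3, CHORDC1, STIP1, FKBP4, AHSA1, PTGES3 and CDC37) and the transcription factors HSF1 and HSF2. For each gene, the transcript entry with the highest mean FPM (fragments scaled to the library total) was taken, and all 32 had a row among 22395 genes and passed the filter on low counts, as did 16407 genes in all. HSPA9, HSPD1 and HSPE1 encode chaperones of the mitochondrial matrix, and HSF1 and HSF2 encode no chaperone, so the word cytosolic holds for the rest of the list.

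Polyadenylated RNA was sequenced from 293 Flip-In T-REx cells, derived from human embryonic kidney and built to take a transgene at a single genomic site. The 14 libraries formed 7 groups of 2, from 2 biologically independent experiments per the design text. The ctrl group held an empty vector. The other groups held a SNAP-ADAR gene, a fusion of the SNAP tag to an ADAR deaminase: SNAP-ADAR1 with guide RNA (SA1+gRNA), SNAP-ADAR2 with guide RNA (SA2+gRNA), SNAP-ADAR1Q with the change E406Q without guide (SA1Q) and with it (SA1Q+gRNA), and SNAP-ADAR2Q with the change E403Q without guide (SA2Q) and with it (SA2Q+gRNA). No group held SNAP-ADAR1 or SNAP-ADAR2 without guide, or the empty vector with guide, and the sources used here do not give the guide's target, the transgene's induction or the number of clones behind each line. A difference between lines can therefore not be told apart from a difference between clones.

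Chaperones bind unfolded stretches of other proteins. HSP70 proteins do so in cycles of ATP hydrolysis that J-domain proteins start and nucleotide exchange factors such as the BAG and HSP110 proteins end, and HSP90 takes over partly folded clients with its own cochaperones. When unfolded protein accumulates, HSF1 is released from chaperones, forms trimers and binds heat shock elements, repeats of the unit NGAAN in alternating orientation, which raises transcription of many of these genes. HSPA1A, HSPA1B, DNAJB1 and HSPH1 are commonly used to read that response, while HSPA8 and HSP90AB1 are the forms made at a high level without stress.

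The promoter windows of 5 members are shown because the genes with significant differences (HSPA8, DNAJA1 and HSPB1) and the HSP90 pair can be read against the heat shock element. Each runs from 250 bases before the transcript start to 20 after it, as given by RefSeq on GRCh38.p14, for HSPA8 at chr11:123062117-123062386 (minus strand), DNAJA1 at chr9:33025023-33025292 (plus), HSP90AA1 at chr14:102087025-102087294 (minus), HSP90AB1 at chr6:44247693-44247962 (plus) and HSPB1 at chr7:76302423-76302692 (plus). Capitals mark every match, on either strand, to the pairs of units GAANNTTC or TTCNNGAA; where both overlap they form the 3-unit pattern GAANNTTCNNGAA or its reverse complement.
HSPA8: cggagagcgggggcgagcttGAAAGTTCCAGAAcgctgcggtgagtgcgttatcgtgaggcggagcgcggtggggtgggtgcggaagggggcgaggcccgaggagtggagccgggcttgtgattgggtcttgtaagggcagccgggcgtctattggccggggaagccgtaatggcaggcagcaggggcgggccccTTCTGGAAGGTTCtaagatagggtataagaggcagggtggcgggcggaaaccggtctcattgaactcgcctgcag
DNAJA1: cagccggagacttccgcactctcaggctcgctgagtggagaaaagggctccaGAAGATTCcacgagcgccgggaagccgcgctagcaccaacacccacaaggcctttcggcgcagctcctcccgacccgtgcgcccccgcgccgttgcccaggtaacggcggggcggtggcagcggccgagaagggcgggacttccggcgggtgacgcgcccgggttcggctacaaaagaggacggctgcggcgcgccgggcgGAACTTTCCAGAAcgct
HSP90AA1: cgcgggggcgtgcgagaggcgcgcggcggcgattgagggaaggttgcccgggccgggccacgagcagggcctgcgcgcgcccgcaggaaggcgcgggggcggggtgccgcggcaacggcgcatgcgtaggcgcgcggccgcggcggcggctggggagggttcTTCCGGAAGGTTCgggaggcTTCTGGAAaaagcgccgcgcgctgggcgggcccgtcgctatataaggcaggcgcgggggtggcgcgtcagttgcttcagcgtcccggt
HSP90AB1: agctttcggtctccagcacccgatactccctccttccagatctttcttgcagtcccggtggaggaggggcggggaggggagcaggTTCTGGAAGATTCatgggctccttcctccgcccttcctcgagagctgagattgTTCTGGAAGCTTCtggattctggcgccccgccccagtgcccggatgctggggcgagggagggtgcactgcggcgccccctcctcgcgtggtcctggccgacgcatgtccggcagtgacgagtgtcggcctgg
HSPB1: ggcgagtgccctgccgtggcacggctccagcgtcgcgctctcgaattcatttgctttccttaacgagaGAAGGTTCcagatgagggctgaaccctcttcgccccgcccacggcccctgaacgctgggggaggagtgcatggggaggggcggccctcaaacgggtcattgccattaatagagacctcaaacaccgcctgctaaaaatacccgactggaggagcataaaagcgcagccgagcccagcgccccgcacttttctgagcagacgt
HSPA8 held the 3-unit pattern at bases 21 and 196 of its window, HSP90AB1 at bases 86 and 139, and HSP90AA1 at base 163. DNAJA1 held it at base 254, just after the transcript start of its window. Counted entries are placed on hg19, and for HSPA8, DNAJA1 and HSPB1 the counted start is not set here against that of the window. HSPB1 held 1 pair of units and no 3-unit match. RefSeq windows of 300 bases, 250 before and 50 after a start, were matched for 28 of the 32 members; HSPA14, HSF1, FKBP4 and CRYAB were not matched. The 3-unit pattern lay in 7 of the 28 (25.0%: CHORDC1, DNAJA1, DNAJB6, HSP90AA1, HSP90AB1, HSPA8 and HSPD1), against 0.608% of 27305 genes with such windows. The pair GAANNTTC lay in 13 of 28 (46.4%, HSPA1A, HSPA1B and DNAJB1 among them) against 8.21%, and TTCNNGAA in 11 (39.3%) against 9.46%. RefSeq gives 2 windows for HSP90AA1 and 3 for HSP90AB1; each is printed by the window with matches, its other windows hold no 3-unit match, and a gene was counted where any of its windows matched. The HSP90AA1 entry counted here is the longer transcript, which starts at the window not printed. The HSP90AB1 entry counted here also starts upstream of its printed window. For both genes, the printed matches thus lie outside the window of the counted start. HSP90AA1 has 2 entries and HSP90AB1 has 5, and fragments on sequence that entries share cannot be assigned to 1 start. The counts thus do not show which start the RNA came from. These are matches of letters, not measured sites, and a window without a match says nothing of elements outside it.

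Library totals ran from 43.0 to 130.1 M fragments. In SA1+gRNA replicate 2, the deepest, 100% of the counts above 0 were even, against 47.7% to 48.7% in the other libraries, and counted by pairs it held 65.1 M. ADAR was at 1085 to 1603 CPM (counts scaled by TMM to a common library total) in the SA1 and SA1Q libraries and 297.1 to 340.2 in the rest, and ADARB1 was at 939.7 to 1163 CPM in the SA2 and SA2Q libraries and 25.55 to 37.21 in the rest, as labelled. On the first principal component, which held 24.7% of the variance, ctrl replicate 1 (−39.6) and SA1Q+gRNA replicate 1 (−43.9) stood apart from the other 12 libraries (0.291 to 13.7), so results are also given without both. That leaves 1 library in ctrl and 1 in SA1Q+gRNA, each assumed to vary like the other groups, so every value without both against ctrl rests on ctrl replicate 2 alone. Of the markers fixed for the line, VIM, KRT8, KRT18 and INA carried nearly all of a summed level of 1401 to 1780 CPM, while PAX2 and NEFM were low. Comparisons against ctrl share its 2 libraries and are set side by side only as values.

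Per transcript length, the HSP90 and HSP70 genes led the set. The FPKM values (fragments scaled to transcript length and library total) averaged over the 14 libraries were 993 for HSP90AA1, the stress-inducible HSP90 form, and 717 for HSP90AB1, its constitutive partner. HSPA8, the constitutive HSP70, was at 689 and HSPA1B, a stress-inducible HSP70, at 518, followed by the mitochondrial chaperonin HSPD1 at 438 and PTGES3, the p23 cochaperone of HSP90, at 270.4. HSPB1 was at 22.8 FPKM. At the other end lay DNAJB4 at 3.54 FPKM, HSPA2, an HSP70 best known from the testis, at 1.45, the lens and muscle chaperone CRYAB at 0.182 and DNAJA4 at 0.147. The 5 genes with the highest FPKM took 67.2% to 69.8% of the members' CPM in every library. The summed level of all 32 was 14219 ± 330 CPM in ctrl (SD, n = 2), the lowest of the 7 groups, and 14859 ± 107 to 15461 ± 410 in the other groups.

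**Figure D1:**
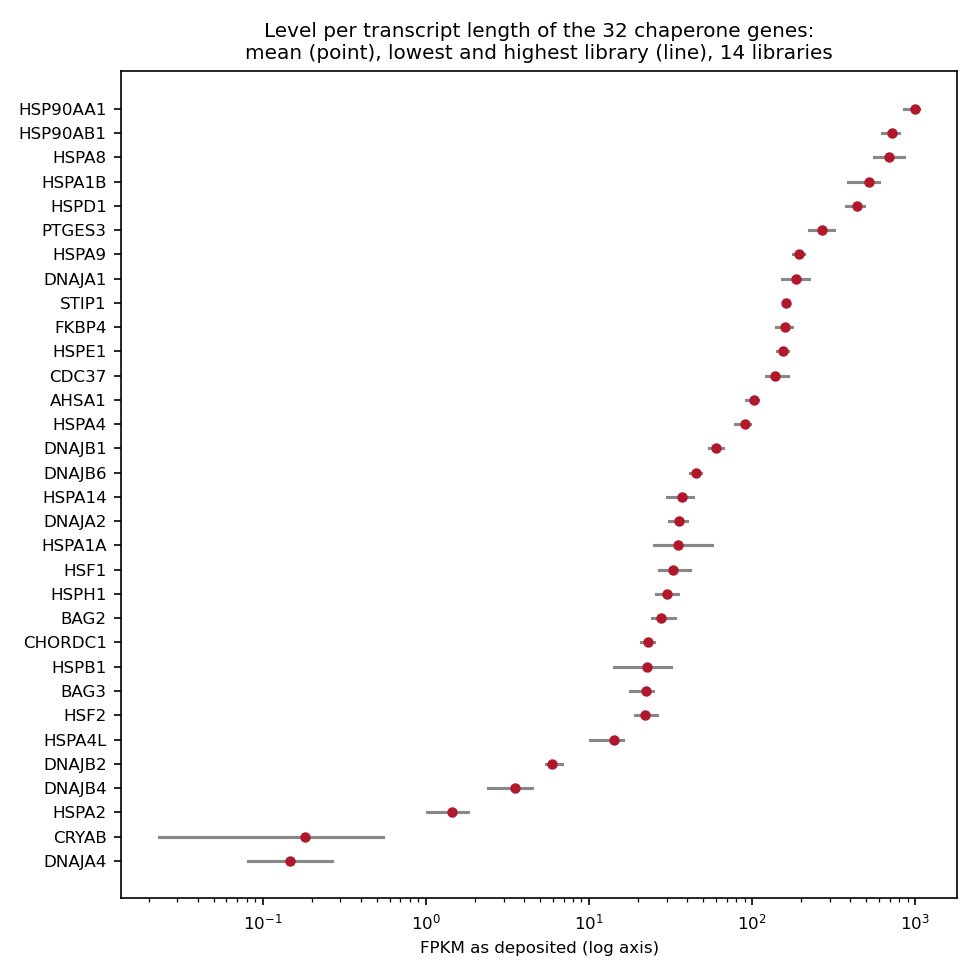
FPKM of the 32 chaperone genes on a log axis; points are means over the 14 libraries and lines run from the lowest to the highest library. HSP90AA1 (993 FPKM) lies at the top and DNAJA4 (0.147 FPKM) at the bottom, and for most genes the line is short beside the distance to other genes.

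Most members were steady across the 7 groups. The ratio of the highest to the lowest group mean was under 1.25 for 20 of the 32 genes (62.5%, against 49.2% of all tested genes) and under 1.5 for 28, with a median of 1.198 against 1.253. The members lie higher than most genes, with a median of 131.1 CPM against 20.82. Among genes with a mean of at least 10 CPM, the share under 1.25 was 71.4% of 28 members and 71.8% of 10224 genes. The ratio was at or over 1.5 for HSPA1A (1.70), HSPB1 (1.75), DNAJA4 (2.54) and CRYAB (8.07). CRYAB rested on 1 to 22 counts per library and DNAJA4 on 13 to 66, so their ratios were set by few reads.

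No member passed the edgeR quasi-likelihood F test for any difference over the 7 groups at an adjusted p under 0.05, where 1.57% of all genes did. At an unadjusted p under 0.05 there were 7 (HSPA1A, HSPA8, HSPH1, HSPB1, DNAJA1, HSF1 and PTGES3), against 16.8% of all genes; the smallest adjusted p was 0.0863, for DNAJA1. DESeq2 called 4 (DNAJA1, HSPA8, HSPB1 and HSPH1, against 8.25% of all genes) and limma-voom called 0. Without ctrl replicate 1 and SA1Q+gRNA replicate 1, edgeR called 6, adding HSPA1A and HSPA1B to those 4, and 11% of all genes.

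**Figure D2:**
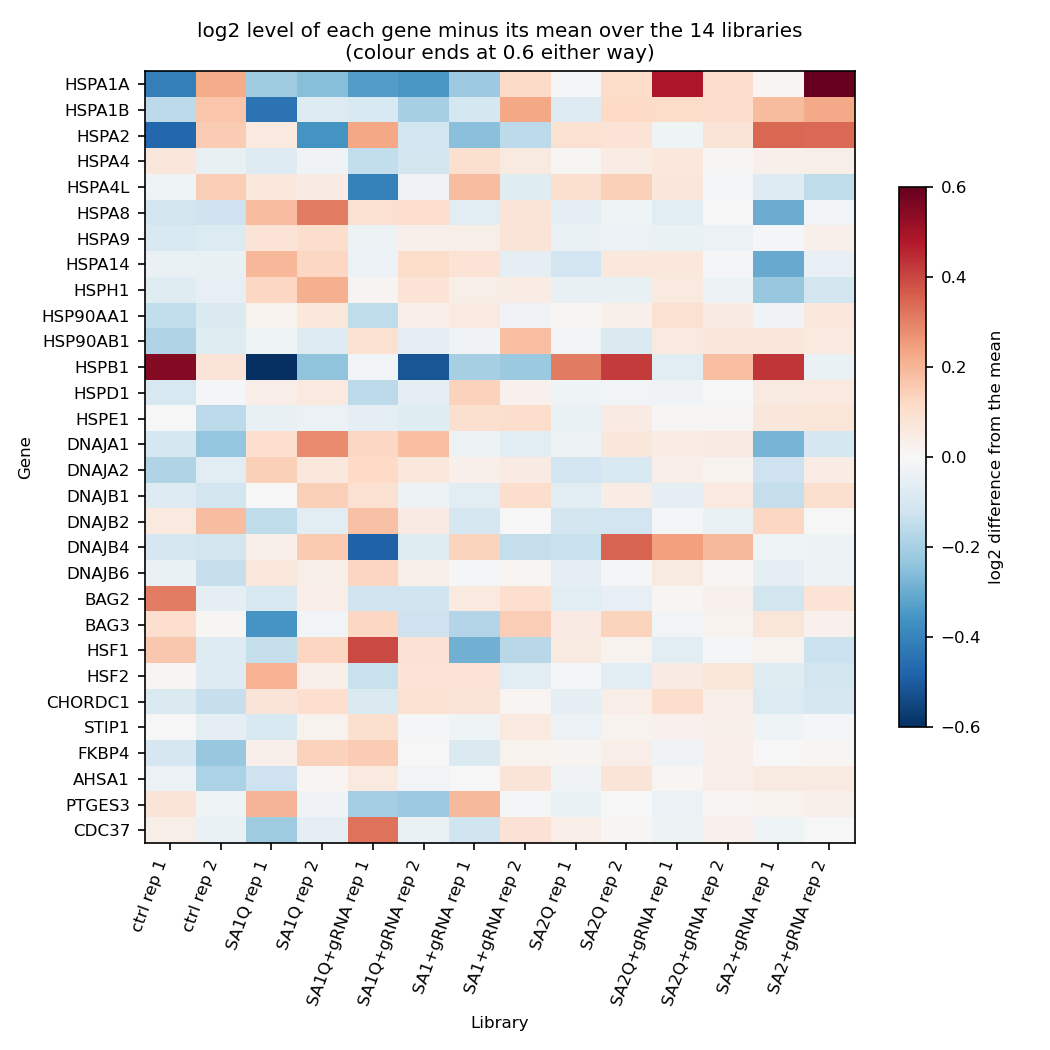
Colour gives the log2 level of a gene in a library minus that gene's mean over the 14 libraries, with the scale ending at 0.6 either way, for the 30 chaperone genes with a mean of at least 1 CPM (without DNAJA4 and CRYAB). HSPB1 and HSPA1A have the strongest colours, HSPB1 being lowest in SA1Q replicate 1 and highest in ctrl replicate 1, and HSPA8 and DNAJA1 are highest in the SA1Q and SA1Q+gRNA libraries.

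SA1Q against ctrl asks what differed in cells with the SNAP-ADAR1Q gene and no guide. HSPA8 and DNAJA1 rose, the only 2 of 32 members called (6.25%), where 2.8% of all 16407 genes were called and 1.06% rose. HSPA8 encodes the constitutive HSP70 of the cytosol, and DNAJA1 a J-domain protein that delivers clients to it. The median log2 change of the members was 0.07, with 19 of 32 above 0; over all genes the median was 0.00 and 50.1% lay above 0. At an unadjusted p under 0.05 there were 10 members, against 21.2% of all genes. The interval of the change lay within 0.5 log2 units of 0 (1.41-fold) for 23 of the 32, against 56.3% of all genes. Most genes lie lower in level than the members, and this share was not matched for level.

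HSPA8 (hg19 chromosome 11, 122928200 to 122933043, minus strand) was at 1658 and 1645 CPM in ctrl and at 2035 and 2214 in SA1Q. It was at 1910 and 1924 CPM in SA1Q+gRNA, 1724 and 1758 in SA2Q, 1709 and 1796 in SA2Q+gRNA, 1707 and 1893 in SA1+gRNA, and 1458 and 1773 in SA2+gRNA. The 4 libraries of the SNAP-ADAR1Q line were the highest of the 14, and both without guide lay above both with it. The log2 change in SA1Q against ctrl was 0.36 (SE 0.09, 95% interval 0.18 to 0.55, 1.29-fold, adjusted p = 0.0412 by edgeR), and 0.37 (SE 0.09, adjusted p = 0.0208) without ctrl replicate 1 and SA1Q+gRNA replicate 1. In SA1Q+gRNA against ctrl HSPA8 was not called, with a log2 difference of 0.22 (SE 0.09, adjusted p = 0.283).

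DNAJA1 (hg19 chromosome 9, 33025209 to 33039062, plus strand) was at 279.6 and 256.2 CPM in ctrl and at 322.2 and 365.6 in SA1Q. SA1Q+gRNA had 327.0 and 340.3 CPM, SA2Q 294.6 and 314.9, SA2Q+gRNA 309.8 and 310.6, SA1+gRNA 294.2 and 287.1, and SA2+gRNA 247.4 and 279.1. The SNAP-ADAR1Q libraries again lay above all others, and the SNAP-ADAR2Q libraries lay between them and ctrl. The log2 change in SA1Q against ctrl was 0.36 (SE 0.08, 95% interval 0.18 to 0.54, 1.28-fold, adjusted p = 0.0368 by edgeR), and 0.43 (SE 0.09, adjusted p = 0.00706) without both libraries that stood apart. In SA1Q+gRNA against ctrl it was 0.32 (SE 0.08, adjusted p = 0.0895), and without both libraries, with 1 library left in each group, it was 0.41 (SE 0.10, adjusted p = 0.0429).

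Both calls were narrow. Leaving out each of the 4 libraries in turn gave HSPA8 a log2 change of 0.30 to 0.42 and no call in 4 fits (adjusted p 0.0518 to 0.197), and DNAJA1 0.27 to 0.45 with 1 call in 4, the one without ctrl replicate 1 (adjusted p 0.0390 to 0.207). Where only the 4 libraries of SA1Q and ctrl entered the fit, neither was called. Of markers of other cell types, the summed fibroblast level was 5.686 to 5.773 CPM in SA1Q and 9.014 to 10.84 in ctrl. All 4 tested fibroblast markers lay below 0 (log2 change −2.44 to −0.64), and only COL1A1 was called (−0.64, adjusted p = 0.0234). The summed blood cell level was 130.1 to 141.6 against 159.7 to 161.4 CPM, with 0 of 3 called (2 at an unadjusted p under 0.05). Of the 6 markers of the line, INA was higher (0.47, adjusted p = 0.0159) and KRT8 lower (−0.48, adjusted p = 0.0168) in SA1Q than in ctrl. Of the RNA quality and nuclear RNA list (MALAT1, NEAT1 and the ribosomal precursor RNA45SN5), 0 of 3 were called, with NEAT1 at −0.44 (adjusted p = 0.0977), and −0.69 (adjusted p = 0.000904) without both libraries that stood apart; its summed level was 3361 to 6306 CPM in SA1Q and 4154 to 6400 in ctrl. The part of these lists in the chaperone results was not tested. In these bulk libraries, a different share of cells and a different RNA level per cell cannot be told apart.

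**Figure D3:**
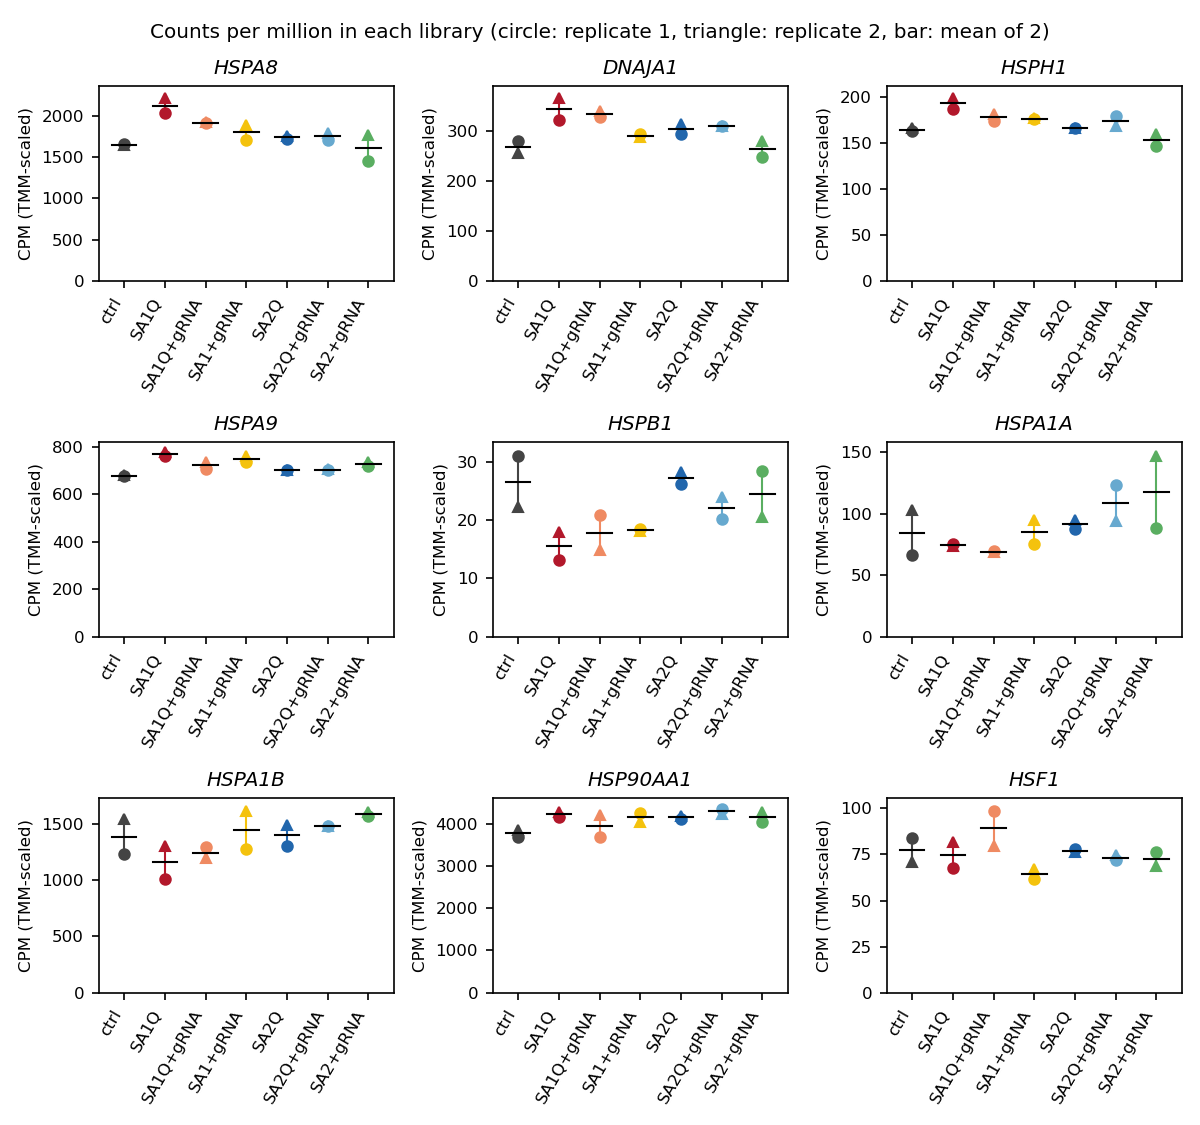
CPM in each library for 9 chaperone genes by group; circles are replicate 1, triangles replicate 2 and bars the mean of 2, and each vertical axis starts at 0. The SA1Q and SA1Q+gRNA libraries of HSPA8 lie at 1910 to 2214 CPM, above all others, while HSPB1 lies at 13.24 to 20.92 CPM in these libraries and at 18.14 to 30.93 in the other 10.

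Of the genes commonly read for a heat shock response, HSPH1, DNAJB1, HSPA1A and HSPA1B, none was called by edgeR in any comparison. HSPH1, the HSP110 exchange factor, was at 163.2 and 166.0 CPM in ctrl, 187.1 and 199.4 in SA1Q, 166.4 and 166.5 in SA2Q, 173.7 and 182.1 in SA1Q+gRNA, 179.1 and 168.3 in SA2Q+gRNA, 176.0 and 177.1 in SA1+gRNA, and 146.9 and 159.3 in SA2+gRNA. SA1Q was highest, without overlap with any other group, and the log2 difference from ctrl was 0.23 (SE 0.07, adjusted p = 0.0988). DNAJB1, a J-domain protein that rises steeply on heat shock, was at 135.2 and 132.4 CPM in ctrl, 142.9 and 157.9 in SA1Q, 136.3 and 147.4 in SA2Q, 151.9 and 139.7 in SA1Q+gRNA, 137.5 and 148.8 in SA2Q+gRNA, 136.8 and 153.7 in SA1+gRNA, and 129.4 and 152.6 in SA2+gRNA. Both ctrl libraries lay below both libraries of every other group except SA2+gRNA, the groups other than ctrl overlapped one another, and the group means differed by 1.12-fold at most.

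HSPA1B was at 1234 and 1541 CPM in ctrl, 1012 and 1302 in SA1Q, 1305 and 1494 in SA2Q, 1290 and 1199 in SA1Q+gRNA, 1484 and 1480 in SA2Q+gRNA, 1278 and 1617 in SA1+gRNA, and 1571 and 1608 in SA2+gRNA. HSPA1A, which encodes almost the same protein, was at 66.14 and 102.7 CPM in ctrl, 75.74 and 73.71 in SA1Q, 87.6 and 95.04 in SA2Q, 69.65 and 68.93 in SA1Q+gRNA, 123.1 and 94.49 in SA2Q+gRNA, 75.62 and 95.31 in SA1+gRNA, and 88.73 and 146.8 in SA2+gRNA. The SA1Q and ctrl libraries overlapped for both genes, and neither was called. Of 100-base windows of their transcripts, 69.9% of HSPA1A and 72.7% of HSPA1B occur in another gene's transcript, so the split of reads between them depends on the counting, and each gene's value is uncertain. The ratio of HSPA1B to HSPA1A ranged from 10.9 to 18.7 over the libraries, and their sum from 1088 to 1755 CPM, lowest in SA1Q replicate 1 and highest in SA2+gRNA replicate 2. Without both libraries that stood apart, HSPA1B had a log2 difference of −0.41 in SA1Q against ctrl (SE 0.12, adjusted p = 0.0455), measured from ctrl replicate 2 alone; the ctrl library left out, at 1234 CPM, lay below SA1Q replicate 2.

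HSP90AA1 was at 3689 and 3856 CPM in ctrl, 4156 and 4272 in SA1Q, 4118 and 4178 in SA2Q, 3683 and 4200 in SA1Q+gRNA, 4351 and 4230 in SA2Q+gRNA, 4255 and 4033 in SA1+gRNA, and 4030 and 4274 in SA2+gRNA. HSP90AB1 was at 1823 and 1962 CPM in ctrl, 2025 and 1955 in SA1Q, 2044 and 1946 in SA2Q, 2200 and 1991 in SA1Q+gRNA, 2149 and 2165 in SA2Q+gRNA, 2037 and 2340 in SA1+gRNA, and 2165 and 2153 in SA2+gRNA. Both had their lowest group mean in ctrl, and neither was called in any comparison. The largest differences of the pair from ctrl were 0.19 for HSP90AA1 in SA2Q+gRNA (SE 0.07, adjusted p = 0.422) and 0.21 for HSP90AB1 in SA1+gRNA (SE 0.08, adjusted p = 0.385).

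Among the other members, ctrl was the lowest group for many and SA1Q the highest: over the 32, ctrl had the lowest mean for 10 (31.2%, against 17.1% of all genes) and SA1Q the highest mean for 12 (37.5%, against 19.9%). FKBP4, an immunophilin cochaperone of HSP90, ranged over group means from 567.5 CPM in ctrl to 673.2 in SA1Q. Its log2 difference from ctrl was 0.25 in SA1Q (SE 0.08, adjusted p = 0.0965) and 0.24 in SA1Q+gRNA (SE 0.08, adjusted p = 0.166). Against ctrl replicate 2 alone, without both libraries that stood apart, it was 0.31 in SA1Q (SE 0.07, adjusted p = 0.0126). DNAJA2, a further J-domain partner of HSP70, ranged from 105.8 CPM in ctrl to 123.5 in SA1Q, and CHORDC1, an HSP90 partner, from 76.47 in ctrl to 87.98 in SA1Q. HSPA9, the mitochondrial HSP70, ranged from 677.8 CPM in ctrl to 768.9 in SA1Q, with a log2 difference of 0.18 (SE 0.06, adjusted p = 0.126).

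The remaining members had narrower or noisier ranges over group means. HSPD1 lay at 993.0 to 1132 CPM and its cofactor HSPE1 at 149.4 to 169.0, each highest in SA1+gRNA; HSPE1 overlaps the readthrough gene HSPE1-MOB4 on its strand and HSPD1 on the other. HSPA4, an HSP110-type exchange factor, lay at 296.3 to 340.8 CPM, its relative HSPA4L at 42.66 to 53.26, HSPA14 at 66.91 to 84.26 and HSPA2 at 3.65 to 5.34. The J-domain genes DNAJB2, DNAJB4 and DNAJB6 lay at 18.26 to 21.51, 6.92 to 9.70 and 112.0 to 126.3 CPM. The exchange factors BAG2 and BAG3 lay at 55.30 to 65.95 and 54.18 to 65.21 CPM. The HSP90 cochaperones STIP1, which links HSP70 to HSP90, AHSA1, which stimulates its ATPase, and CDC37, which brings it kinases, lay at 369.1 to 389.5, 142.3 to 159.6 and 223.1 to 272.3 CPM, and HSF2 lay at 59.25 to 68.75. None of these genes was called in any comparison by edgeR.

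The 7 members with the 3-unit pattern in a promoter window had log2 differences of 0.07 to 0.36 in SA1Q against ctrl, all above 0, with a median of 0.16, and both called genes were among them. The 21 members with a window but no match ranged from −0.77 to 0.70, with 10 above 0 and a median of −0.01. Over all genes, 50.1% lay above 0 and 2.8% were called. In the comparison of the SNAP-ADAR1Q with the SNAP-ADAR2Q line, 4 of the 7 lay above 0 with a median of 0.01, and 7 of the 21 with a median of −0.04. With guide against without, pooled over these lines, 2 of the 7 and 9 of the 21 lay above 0. For the guide effect in SA1Q minus that in SA2Q, 0 of the 7 (median −0.14) and 8 of the 21 (−0.09) did. In SA1Q+gRNA against SA1+gRNA these counts were 3 and 9, and in SA2Q+gRNA against SA2+gRNA 5 and 11. Against the same ctrl libraries, all 7 also lay above 0 in SA2Q (median 0.08), SA2Q+gRNA (0.19) and SA1+gRNA (0.13), as did 6 in SA1Q+gRNA (0.15) and 5 in SA2+gRNA (0.04), beside 16, 13, 14, 11 and 12 of the 21 in these groups. These counts describe 28 members and were not tested. For HSP90AA1 and HSP90AB1, both among the 7, the matched window is not the one at the start of the entry counted. HSPA1A, HSPA1B and DNAJB1, whose windows hold pairs of units only, belong to the 21.

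HSF1, the main heat shock transcription factor, was at 83.94 and 71.05 CPM in ctrl, 67.81 and 81.95 in SA1Q, 77.85 and 76.2 in SA2Q, 98.75 and 79.58 in SA1Q+gRNA, 71.84 and 74.65 in SA2Q+gRNA, 61.48 and 66.9 in SA1+gRNA, and 76.08 and 68.59 in SA2+gRNA. Its highest library was SA1Q+gRNA replicate 1, which stood apart on the first principal component. HSF1 overlaps DGAT1 on the other strand. The comparison of SA1Q+gRNA with SA1+gRNA sets lines with and without the changed deaminase residue side by side, both with guide. An effect of the residue cannot be told apart from a difference between clones. By edgeR 0 of 32 members were called there (0.963% of all genes) and 7 had an unadjusted p under 0.05 (17.4% of all genes). HSF1 had a log2 difference of 0.47 (SE 0.12, 95% interval 0.22 to 0.72, adjusted p = 0.0702) and PTGES3 of −0.31 (SE 0.09, adjusted p = 0.0986), lowest in SA1Q+gRNA at 513.4 ± 3.2 CPM (SD, n = 2). DESeq2 called both, limma on log2(FPKM + 0.1) called HSF1, and limma-voom called 0. Without both libraries that stood apart, the difference of HSF1 was 0.31 (SE 0.10, adjusted p = 0.170). In SA2Q+gRNA against SA2+gRNA 0 members were called (0.0122% of all genes), with 2 at an unadjusted p under 0.05 (7.87% of all genes), and 0 by DESeq2 and limma-voom.

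HSPB1 had the highest ratio between group means (1.75) of the members with a mean of at least 10 CPM. This small heat shock protein, also known as Hsp27, holds unfolded proteins without using ATP and binds the actin cytoskeleton. HSPB1 (hg19 chromosome 7, 75931875 to 75933614, plus strand) was at 30.93 and 22.27 CPM in ctrl, 13.24 and 17.9 in SA1Q, 26.28 and 28.31 in SA2Q, 20.92 and 14.83 in SA1Q+gRNA, 20.17 and 23.98 in SA2Q+gRNA, 18.43 and 18.14 in SA1+gRNA, and 28.46 and 20.54 in SA2+gRNA. The 5 lowest values all came from libraries with SNAP-ADAR1 or SNAP-ADAR1Q, and both SA2Q libraries lay within the range of ctrl. In SA1Q against ctrl the log2 difference was −0.77 (SE 0.20, 95% interval −1.20 to −0.35), and its adjusted p of 0.0501 missed the threshold. DESeq2 called it lower there (adjusted p = 0.00351). So did the length and GC offset (adjusted p = 0.0350) and 5 other settings that kept every library. Limma-voom did not call it (adjusted p = 0.0613), nor did RLE scaling, a replicate block or a fit of only the groups compared. Of the fits without 1 library of SA1Q or ctrl, only that without ctrl replicate 2 called it. Without both libraries that stood apart, the difference was −0.52 and was not called. By edgeR it was −0.58 (SE 0.20, adjusted p = 0.190) in SA1Q+gRNA and −0.54 (SE 0.19, adjusted p = 0.370) in SA1+gRNA.

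The 4 SNAP-ADAR1Q libraries were then set against the 4 SNAP-ADAR2Q libraries, with and without guide together, which asks where the lines differ from each other. HSPB1 was lower in the SNAP-ADAR1Q line, the only member called, 1 of 32 (3.12%), where 2.75% of all genes were called and 1.72% were lower. At an unadjusted p under 0.05 there were 10 members, against 16.8% of all genes. The log2 difference was −0.56 (SE 0.14, 95% interval −0.86 to −0.27, 0.677-fold, adjusted p = 0.0438 by edgeR), although SA1Q+gRNA replicate 1 at 20.92 CPM lay above SA2Q+gRNA replicate 1 at 20.17. It was −0.69 (SE 0.11, adjusted p = 0.00114) without both libraries that stood apart. Leaving out 1 of the 8 libraries at a time gave −0.69 to −0.45 and 1 call in 8, the one without SA1Q+gRNA replicate 1 (adjusted p 0.0128 to 0.203). Within 5.1% of its 100-base windows, HSPB1 shares sequence with the pseudogene HSPB1P1.

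Without overlap between the 4 libraries of each line, HSPA8, HSPA9, DNAJA1 and DNAJA2 were higher in the SNAP-ADAR1Q line and HSPA1A, HSPA1B and HSPA4 were lower. These were 7 of 32 members (21.9%), against 11.9% of all genes, of which 5.63% were higher and 6.22% lower. The members lie higher in level than most genes, and this share was not matched for level. None of these 7 was called by edgeR. The log2 differences were 0.21 for HSPA8 (adjusted p = 0.0931), 0.14 for DNAJA1 (0.245), 0.13 for DNAJA2 (0.233) and 0.09 for HSPA9 (0.359), and −0.47 for HSPA1A (0.116), −0.26 for HSPA1B (0.151) and −0.12 for HSPA4 (0.230). Without both libraries that stood apart, 4 members were called: HSPA8 higher (0.21, adjusted p = 0.0222), and HSPA1A (−0.47, adjusted p = 0.0242), HSPA1B (−0.29, adjusted p = 0.0242) and HSPB1 lower, beside 11.8% of all genes. The summed blood cell markers lay at 122.4 to 141.6 CPM in the SNAP-ADAR1Q line and 168.6 to 181.3 in the SNAP-ADAR2Q line, with LCP1 (−0.40, adjusted p = 0.00193) and CD68 (−0.74, adjusted p = 0.00209) lower, 2 of 3 tested, and PTPRC and HBB near 0. The summed fibroblast markers overlapped, at 5.323 to 9.159 and 7.163 to 7.967 CPM. Of the line's own 6 markers KRT8 was lower (−0.36, adjusted p = 0.00996), and of the 3 in the RNA quality and nuclear RNA list NEAT1 was lower (−0.40, adjusted p = 0.0413); the summed level of that list ran from 2762 to 12050 CPM within SA1Q+gRNA alone. The part of these lists in the line differences was not tested.

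**Figure D4:**
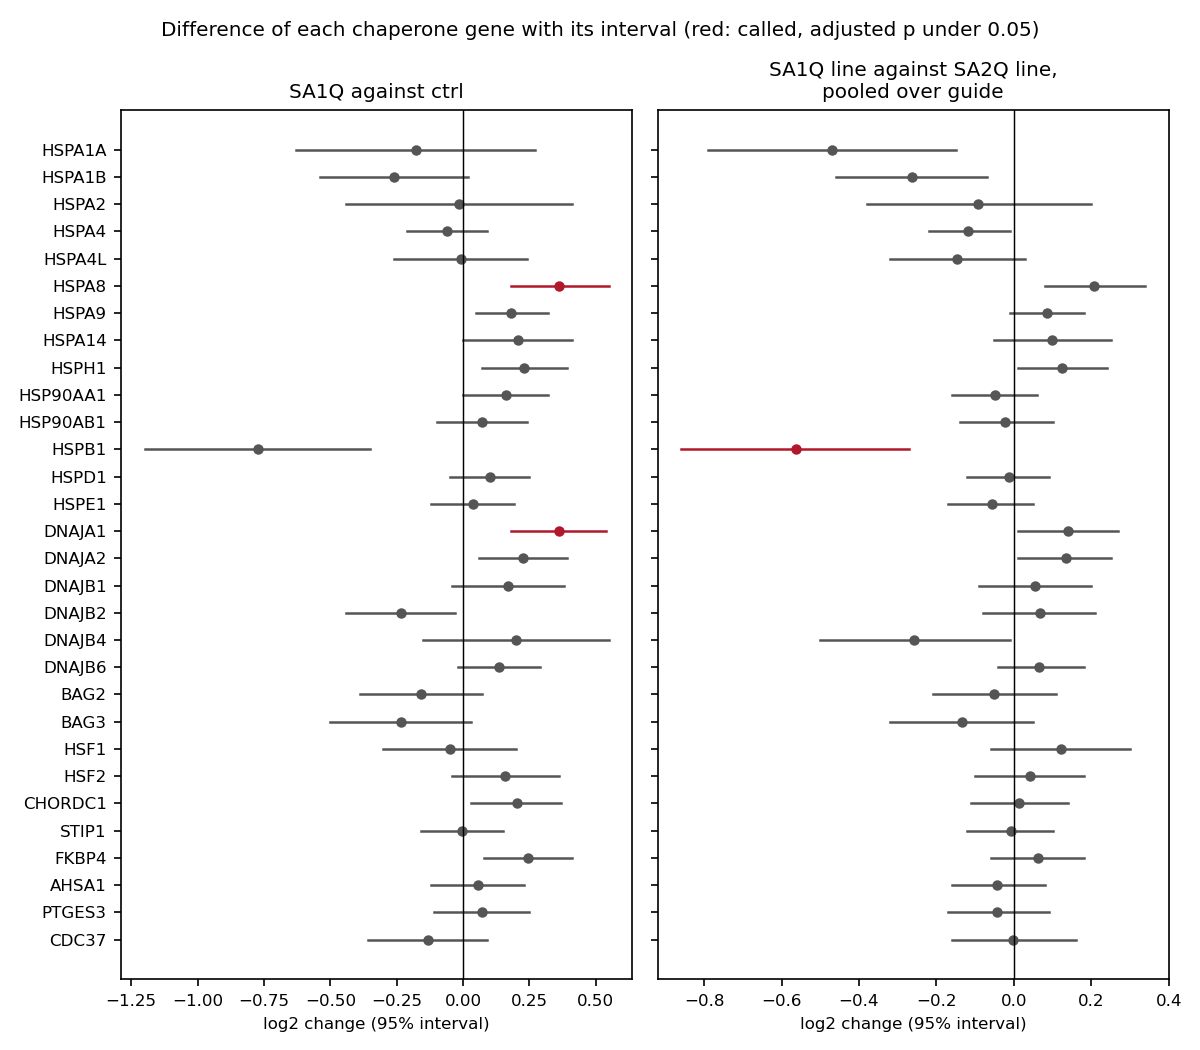
Log2 differences with 95% intervals for the 30 chaperone genes with a mean of at least 1 CPM; red marks genes with an adjusted p under 0.05 by edgeR. HSPA8 and DNAJA1 (both 0.36) are red in SA1Q against ctrl and HSPB1 (−0.56) in the comparison of the SNAP-ADAR1Q and SNAP-ADAR2Q lines; most other intervals cross or come close to 0.

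Guide RNA was compared with no guide in the lines present with and without it. Pooled over the SNAP-ADAR1Q and SNAP-ADAR2Q lines, 0 of 32 members were called with guide against without by edgeR (0% of all genes), 2 had an unadjusted p under 0.05 (DNAJB2 at 0.16 and PTGES3 at −0.15, against 5.66% of all genes), and DESeq2 and limma-voom called 0. The median log2 difference was −0.01 and 13 of 32 lay above 0, against a median of 0.00 and 51.3% over all genes. The interval lay within 0.5 log2 units of 0 for 30 of the 32, all but DNAJA4 and CRYAB. Of all genes, not matched for level, 77.6% had such an interval. The test of whether the effect of guide differed between the lines called 0 members (0% of all genes), with 1 (PTGES3, −0.32, SE 0.12, adjusted p = 0.713) at an unadjusted p under 0.05 (5.66% of all genes), and 0 by DESeq2 and limma-voom.

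In the other comparisons with ctrl, no member was called by edgeR. In SA2Q against ctrl (0.0853% of all genes called) 4 members had an unadjusted p under 0.05 (8.86% of all genes) and the median was 0.04, with 25 of 32 above 0. In SA2Q+gRNA (0.067%) there were 5 (10.1%), with a median of 0.08 and 22 above 0. In SA1+gRNA (0.0427%) there were 5 (10.7%), with a median of 0.08 and 23 above 0, and in SA2+gRNA (0.104%) there were 3 (10.2%), with a median of 0.02 and 19 above 0. DESeq2 and limma-voom called 0 in each of these 4. In SA1Q+gRNA against ctrl (1.04%) there were 9 members at an unadjusted p under 0.05 (13.9%), with a median of 0.08 and 20 above 0; DESeq2 called DNAJA1 and limma-voom called 0. The interval lay within 0.5 log2 units of 0 for 24 members in SA1Q+gRNA, 26 in SA2Q+gRNA and 27 in each of SA2Q, SA1+gRNA and SA2+gRNA. Of all genes, not matched for level, 61.2% to 64.5% had such an interval. Over all genes, 49% to 51.1% lay above 0 in these comparisons, with a median of 0.00 in each. All of these counts share the ctrl libraries.

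Genes that work beside the members were read from fixed lists. Over all genes, 2.8% were called and 50.1% lay above 0 in SA1Q against ctrl. In SA1Q against ctrl, CCT5 rose among the 8 subunits of the TRiC chaperonin, which folds actin and tubulin (0.30, SE 0.07, adjusted p = 0.0340), and all 8 had differences above 0 (median 0.09). DNAJA3, a mitochondrial J-domain protein, rose among 19 other J-domain genes (0.36, SE 0.07, adjusted p = 0.0240), with 16 of 19 above 0 and a median of 0.11. HSPB8, a small heat shock protein that works with BAG3, fell among 4 tested small heat shock genes (−0.63, SE 0.14, adjusted p = 0.0298), and HSF4, a heat shock factor of the lens, among 8 further factors and heat shock targets (−0.66, SE 0.16, adjusted p = 0.0428). None was called among 6 prefoldin subunits (1 at an unadjusted p under 0.05, VBP1 at 0.25), 6 other HSP70 family genes (0, HSPA5 at −0.13), 22 other cochaperones (3, BAG4 at 0.30 and UNC45A at −0.31 leading) and 8 mitochondrial folding genes (2, LONP1 at −0.32 and TRAP1 at 0.18). Without both libraries that stood apart, CCT5 (0.37, adjusted p = 0.00235), DNAJA3 (0.41, adjusted p = 0.00390) and HSF4 (−0.83, adjusted p = 0.00837) passed the threshold against ctrl replicate 2 alone and HSPB8 did not (−0.50, adjusted p = 0.0561).

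HSPB8 was lower in the SNAP-ADAR1Q line than in the SNAP-ADAR2Q line, in every library. It was at 9.029 and 7.556 CPM in ctrl, 5.042 and 5.686 in SA1Q, 4.477 and 5.043 in SA1Q+gRNA, 7.902 and 8.080 in SA2Q, 7.179 and 8.638 in SA2Q+gRNA, 6.355 and 6.244 in SA1+gRNA, and 6.112 and 6.674 in SA2+gRNA. The libraries of SA1+gRNA and SA2+gRNA lay between those of the SNAP-ADAR1Q and the SNAP-ADAR2Q line. HSPB8 passed the F test over the 7 groups (adjusted p = 0.0253), as did 1.57% of all genes. Against the SNAP-ADAR2Q line its log2 difference in the SNAP-ADAR1Q line was −0.65 (SE 0.10, adjusted p = 0.00368), where 2.75% of all genes were called. In the same comparison HSPA5 (−0.29, SE 0.07, adjusted p = 0.0319) and HSP90B1 (−0.25, SE 0.06, adjusted p = 0.0383), the HSP70 and HSP90 of the endoplasmic reticulum, were lower, and all 3 were also called without both libraries that stood apart (HSPB8 adjusted p = 0.00113, HSPA5 0.00762, HSP90B1 0.00572). In SA1Q+gRNA against ctrl, HSPB8 fell (−0.79, SE 0.14, adjusted p = 0.0154) and DNAJA3 rose (0.38, SE 0.07, adjusted p = 0.0267); without both libraries, with 1 library left in each group, HSPB8 was at −0.58 (adjusted p = 0.106).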

How the data were processed

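The deposited files hold one table per library. Per the file headers, the authors gave for each RefSeq transcript a fragment count without normalization, the FPM (scaled to the library total) and the FPKM (scaled to length as well). Reads came from a stranded library kit and were processed on hg19 with Trim Galore and STAR 2.4.2a, per the labels and the submitters' processing notes; the sources used here do not give the counting tool or say whether it used strand. Overlapping genes and near-identical copies are therefore uncertain.

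Transcripts were named with RefSeq and GENCODE tables. Entries without a name (0.81% of counts on average) and those under 200 nucleotides were left out, and a gene's entry with the highest mean FPM stood for it. The deposited counts went into edgeR 4.0.16 under R 4.3.3 (scaled by TMM, filterByExpr with a minimum count of 10, quasi-likelihood, two-sided) over all 14 libraries with 1 mean per group. Benjamini-Hochberg adjustment ran over 16407 genes within each of 12 comparisons, and an adjusted p under 0.05 was called. Unless another tool is named, every adjusted p is edgeR's. With 7 residual degrees of freedom, the common coefficient of variation came to 8.7%; intervals are at 95%. CPM are TMM-scaled. Alternatives included DESeq2 1.42.0, limma 3.58.1 (voom, and log2(FPKM + 0.1)), other scalings, a length and GC offset, a replicate block and left-out libraries.

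The members and lists were chosen with earlier results of these data known. Values of every library are given for called members and for HSPA1A, HSPA1B, HSPA8, HSPH1, HSP90AA1, HSP90AB1, DNAJB1, HSPB1 and HSF1. Of other lists, up to 3 called genes with the smallest p are named, or 1 or 2 genes where none was called. HSPB11 was matched to no row. 1 further called gene of these lists is left out here.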

Additional observations from a re-analysis of the deposited data

How the results depend on the processing

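No difference of HSPA8, DNAJA1 or HSPB1 changed sign under any alternative run, but their calls were marginal: HSPA8 and DNAJA1 each kept theirs in SA1Q against ctrl in 11 of 16 alternatives, and HSPB1 its own between the lines in 12 of 20. Of 32 members, the F test over the 7 groups (0) called 4 without a filter on low counts, 4 by DESeq2, 3 with the length and GC offset and 6 without ctrl replicate 1 and SA1Q+gRNA replicate 1; leaving out single libraries gave 0 to 2. SA1Q against ctrl (2, both higher) called 4 by limma on FPKM, 4 with the length and GC offset and 4 without both libraries, in each case 3 higher and 1 lower, 0 with only the groups compared, 3 under 5 settings that added HSPB1 as lower (no filter, upper-quartile scaling, DESeq2, the transcript with the highest FPKM, and halved counts of SA1+gRNA replicate 2), and 0 to 1 with single libraries left out (0 without either SA1Q library, DNAJA1 without ctrl replicate 1, HSPB1 without ctrl replicate 2). SA1Q+gRNA against ctrl (0) called 1 by DESeq2, 5 with the offset (3 higher, 2 lower), 1 without both libraries, and 0 to 1 with single libraries left out. The SNAP-ADAR1Q against the SNAP-ADAR2Q line (1, lower) called 2 without a filter, 2 by DESeq2, 2 with the offset, 4 without both libraries, 3 with only the groups compared, and 0 to 1 with single libraries left out. SA1Q+gRNA against SA1+gRNA (0) called 1 without a filter, 2 by DESeq2, 1 by limma on FPKM, 1 with the offset, and 0 to 3 with single libraries left out, the 3 (CDC37, HSF1 and HSPA4L) without SA1Q+gRNA replicate 2. The other 7 comparisons called 0 under every alternative run. The cause of these changes was not tested.

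Over all genes, SA1Q against ctrl called 174 higher and 285 lower, 660 and 307 with the length and GC offset, 119 and 349 with upper-quartile scaling, and 487 and 577 by DESeq2; the line comparison called 169 and 283, and 872 and 636 with the offset. Replicates with the same number deviated together in 2 of 21 pairs of groups (r over 0.1, range −0.14 to 0.44), so the numbers were not taken to pair the libraries. With a replicate block, SA1Q against ctrl called 1 member (HSPA8, adjusted p = 0.0385) and the line comparison 0. Only 2 libraries stand behind each group, and CRYAB and DNAJA4 are limited by depth.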
